A study of Caenorhabditis elegans with 2 samples.

Results

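The microRNA genes of Caenorhabditis elegans were examined for chromatin immunoprecipitation peaks of TLF-1, a relative of the TATA-binding protein. They were taken as all genes of biotype miRNA in the Ensembl 115 annotation of WBcel235, the genome build also called ce11, and they numbered 261 of 46890 genes on the 6 nuclear chromosomes. A gene counted as having a peak when a peak interval lay within 100 bp of the annotated gene, and counts within 500 bp are given beside it. The animals were whole young adults of strain OP749, 65.5 hours old, with male and female animals pooled, raised from L1 larvae that had been starved after bleaching. The strain carries the integrated transgene wgIs749, in which tlf-1::TY1::EGFP::3xFLAG is joined by the rescue marker unc-119(+), in a background mutant for unc-119 (allele tm4063). The sample descriptions state that the antibody was against GFP, which would take only the tagged copy, whereas the antibody field of the labels reads tlf-1. Whether the endogenous protein was also precipitated cannot be told from the labels. There was 1 group, with 2 biological replicates that shared a control, and no strain without the tag was analysed here.

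The authors deposited 4 peak lists. Replicate 1 had 24495 peaks, replicate 2 had 23453 and the list from both replicates pooled had 28153. The fourth list held 1880 peaks (1866 distinct intervals) that passed a threshold on the irreproducible discovery rate (IDR), a measure of how well peaks keep their rank in both replicates. These were the 1880 pooled peaks with the highest signal value, the authors' own measure of peak strength, so their IDR rank and pooled rank are the same. Read depth is not given in the sources used here. In whole animals, peaks from different tissues cannot be told apart.

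MicroRNAs are short RNAs that guide Argonaute proteins to messenger RNAs, mainly through the seed, the bases near their 5′ end. RNA polymerase II makes a long primary transcript, Drosha cuts a hairpin from it and Dicer cuts the hairpin to the mature RNA. What the annotation lists as a microRNA gene is close to the hairpin alone, so the start of the primary transcript may lie well upstream of it. TLF-1 belongs to a family of TATA-binding protein relatives found in animals, and C. elegans embryos need it to transcribe many zygotic genes. The 261 annotated genes had a median length of 95 bp. Only 3 of them were longer than 200 bp, among them let-7 at 1732 bp. RefSeq listed a mature arm for 260 of the 261, and the exception was F39B1.3.

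Of the 28 genes with an IDR peak within 500 bp, 17 belonged to 3 groups of microRNAs that share a seed. Mature arms of these groups are printed here from RefSeq (WBcel235), with the seed, bases 2 to 8, in capitals. In the mir-51 group, whose loss in worms causes embryos to fail in attaching the pharynx, all 6 genes had a peak within 500 bp:
mir-51: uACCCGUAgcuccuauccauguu
mir-52: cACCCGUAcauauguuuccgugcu
mir-53: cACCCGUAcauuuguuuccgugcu
mir-54: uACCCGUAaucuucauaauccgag
mir-55: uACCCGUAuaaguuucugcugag
mir-56: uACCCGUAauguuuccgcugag

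The mir-35 group is abundant in oocytes and embryos and is needed for embryonic development, and 7 of its 8 genes had a peak within 500 bp. The exception was mir-42, which is not in the cluster with the others:
mir-35: uCACCGGGuggaaacuagcagu
mir-36: uCACCGGGugaaaauucgcaug
mir-37: uCACCGGGugaacacuugcagu
mir-38: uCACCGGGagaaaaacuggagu
mir-39: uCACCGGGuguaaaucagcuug
mir-40: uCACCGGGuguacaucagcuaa
mir-41: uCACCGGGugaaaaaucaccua
mir-42: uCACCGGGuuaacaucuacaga

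In the mir-64 group, 4 of 5 genes had a peak within 500 bp, and the exception was mir-63, which lies on another chromosome:
mir-229: aAUGACACugguuaucuuuuccaucg
mir-63: uAUGACACugaagcgaguuggaaa
mir-64: uAUGACACugaagcguuaccgaa
mir-66: cAUGACACugauuagggauguga

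Outside the seed the arms of a group differ to varying degrees. Read from the 5′ end, mir-52 and mir-53 have the same base at 23 of 24 positions, whereas mir-51 and mir-52 share 10 of 23. Within the mir-64 group, mir-63 and mir-64 share 18 of 23 positions and mir-64 and mir-66 share 13 of 23. How reads that match several such hairpins were placed is not given in the labels, and its part in the peaks at these clusters was not tested.

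Across all members, 16 of 261 microRNA genes had an IDR peak within 100 bp, which is 6.13% (95% Wilson interval 3.81 to 9.72), and 13 of the 16 overlapped the peak itself. The share of all 46890 genes by the same measure was 4.88%, which lies inside that interval, so at 100 bp microRNA genes stood near the background. Within 500 bp there were 28 microRNA genes, or 10.7% (7.53 to 15.1), against 6.48% of all genes. Of the 46890 genes, 15363 are piRNA genes, of which only 0.215% had a peak within 100 bp and 0.736% within 500 bp. They lower both background shares, and how much of the difference at 500 bp comes from them was not tested. Neighbouring genes share peaks and are not independent. The 16 genes lay near 13 distinct peaks and the 28 near 18, so the intervals, which cover counting error only, are too narrow. Merging microRNA genes within 10 kb of each other into 197 loci, 11 loci (5.58%) had a peak within 100 bp and 15 (7.61%) within 500 bp. At the edge of the 100 bp limit, mir-229 lay 97 bp and mir-39 lay 102 bp from a peak. A limit of 1000 bp would have added 6 more genes beyond those within 500 bp: mir-2213, mir-353, mir-354, mir-4921, mir-4923a and mir-8205.

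By the distance to the whole gene, protein-coding genes had a higher share than microRNA genes within 100 bp (6.13% of microRNA genes, 7.91% of protein-coding genes) and a similar one within 500 bp (10.7% of microRNA genes, 10.5% of protein-coding genes). Protein-coding genes are longer, so shares were also taken around the annotated 5′ end alone. By that measure 5.75% of microRNA genes had an IDR peak within 100 bp, against 22.8% of snoRNA genes, 22.2% of tRNA genes, 21.7% of snRNA genes, 3.83% of protein-coding genes, 0.215% of piRNA genes and 3.02% of all genes. Within 500 bp the shares were 10.7% for microRNA genes, 30.3% for snoRNA genes, 23.9% for tRNA genes, 23.3% for snRNA genes, 6.42% for protein-coding genes and 4.63% for all genes. MicroRNA genes thus lay below the classes of structural small RNA at both distances. They lay above protein-coding genes around the 5′ end but not by the whole gene within 100 bp, so that order depends on the measure. No test of these differences was run. In the whole pooled list, which also holds weak peaks, 86 microRNA genes (33.0%) had a peak within 100 bp, against 33.1% of all genes. The share of all genes is again lowered by piRNA genes, at 6.88%, whereas protein-coding genes reached 53.7%.

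**Figure D1:**
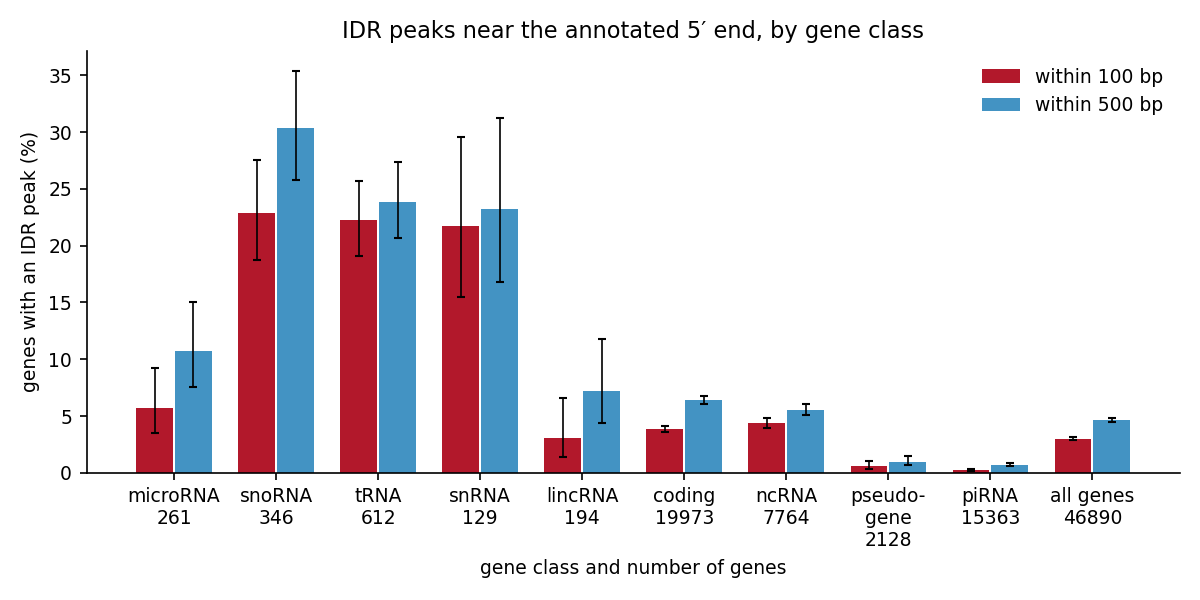
Share of genes of each class with an IDR peak within 100 bp (red) or 500 bp (blue) of the annotated 5′ end, in percent, with the number of genes under each class and 95% Wilson intervals as error bars. MicroRNA genes, at 5.75% and 10.7%, sit below snoRNA, tRNA and snRNA genes. By this measure they are above protein-coding genes, whereas by distance to the whole gene the share within 100 bp is lower for microRNA genes (6.13%) than for protein-coding genes (7.91%).

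Members were divided by where they lie. Of the 261 genes, 97 were intronic (inside a protein-coding gene on either strand without touching its exons), 12 touched an exon, 56 were clustered (another microRNA gene on the same strand within 10 kb) and 96 were independent. Within 100 bp, 8 of 97 intronic genes had a peak (8.25%, 4.24 to 15.4), against 3 of 56 clustered genes (5.36%, 1.84 to 14.6) and 5 of 96 independent genes (5.21%, 2.24 to 11.6). None of the 12 exon-touching genes had one, which allows a share of up to 25%. The intervals of the 4 places overlapped at 100 bp. With the stronger 940 IDR peaks alone the order turned, with 1.03% of intronic, 3.57% of clustered and 4.17% of independent genes.

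Within 500 bp, 19 intronic genes had a peak (19.6%, 12.9 to 28.6), against 3 clustered genes (5.36%) and 6 independent genes (6.25%, 2.90 to 13.0). Most of these were on the strand opposite to their host: 12 of 30 antisense intronic genes (40.0%, 24.6 to 57.7) had a peak within 500 bp, against 7 of 67 sense intronic genes (10.4%, 5.15 to 20.0). Of those 12, 7 were mir-35 to mir-41 inside Y62F5A.9 and 3 were mir-54, mir-55 and mir-56 inside F09A5.3, so 10 of the 12 came from 2 clusters. The others were mir-5595 inside nurf-1, which encodes a subunit of a nucleosome remodelling factor, and mir-1824 inside Y87G2A.18. The sense genes were mir-229, mir-64, mir-65 and mir-66 inside gcn-1, which encodes a relative of the yeast ribosome-associated protein Gcn1, with mir-2214 inside B0361.11, mir-4929 inside E01G4.3 and mir-55b inside F09A5.3.

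The division depended on which class was given precedence, because the mir-35, mir-54 and mir-64 clusters are also intronic. Counting clusters before introns left 2 of 73 intronic genes (2.74%) with a peak within 100 bp. Regardless of place, 9 of 81 genes with another microRNA gene on their strand within 10 kb had a peak within 100 bp (11.1%, 5.96 to 19.8), against 7 of 180 without such a neighbour (3.89%, 1.90 to 7.81). Within 500 bp these were 17 of 81 (21.0%, 13.5 to 31.1) and 11 of 180 (6.11%, 3.45 to 10.6). The 17 were mir-35 to mir-41, mir-54 to mir-56, mir-229, mir-64, mir-65, mir-66, mir-51, mir-53 and mir-80. Many of them share a peak, as mir-37 to mir-41 do, so they are not independent and the intervals for genes with a neighbour are too narrow. The difference was not tested.

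By chromosome, III held 8 of the 16 genes with a peak within 100 bp, out of 27 microRNA genes there (29.6%, 15.9 to 48.5), against 11.7% of all genes on III. Of those 8, 4 were the mir-64 cluster, where mir-64, mir-65 and mir-66 share a peak, so the interval is too narrow. The share on III was the highest of any chromosome, and its difference from all genes there was not tested. The other counts within 100 bp were 4 of 49 on II (8.16%, against 7.25% of all genes there), 3 of 50 on IV (6.00%, against 2.08%, where most genes are piRNA genes) and 1 of 33 on I (3.03%, against 9.75%). Neither V, with 0 of 28 genes, nor X, with 0 of 74, had any. The upper Wilson bounds were 12.1% on V and 4.93% on X. They lie above the 4.59% of all genes on V and the 4.62% of all genes on X. By the limit used elsewhere for a count of 0, 3 counts of the total, the bounds were 10.7% on V and 4.05% on X. V thus cannot be set apart from its background. For X the answer depends on which bound is used, and the difference was not tested. On X the mir-54 cluster and its antisense neighbour mir-55b gave 4 of 74 genes within 500 bp (5.41%, 2.12 to 13.1), against 6.06% of all genes on X. On the autosomes 24 of 187 microRNA genes had one (12.8%, 8.78 to 18.4), against 6.55% of all autosomal genes. Of the 40868 autosomal genes, 15201 are piRNA genes, which rarely have a peak and lower that share. How much of the difference comes from them was not tested.

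**Figure D2:**
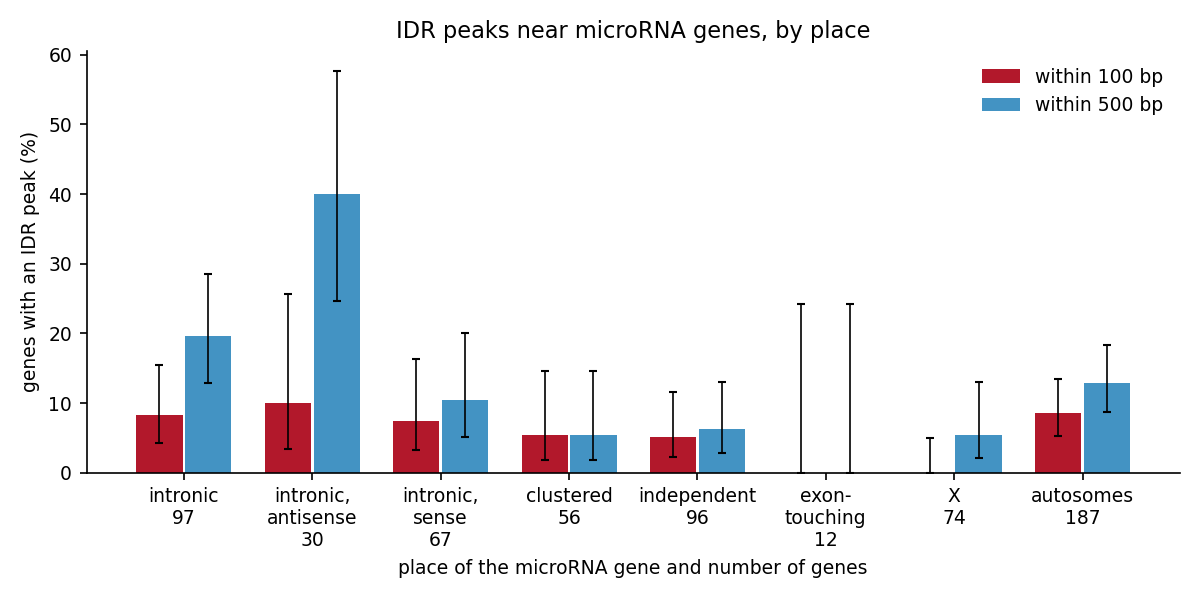
Share of microRNA genes with an IDR peak within 100 bp (red) or 500 bp (blue) by place and by chromosome type, in percent, with the number of genes under each label and 95% Wilson intervals as error bars. Antisense intronic genes reach 40.0% within 500 bp, where 10 of their 12 genes come from 2 clusters, and X has no gene within 100 bp.

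The strongest peak near a member was at mir-5549, an independent gene on III (III:6971976-6972085, minus strand). It ranked 127 among the IDR peaks with a signal value of 306, and 92 in replicate 1 and 178 in replicate 2. Its summit lay inside the annotated gene and also in the promoter windows (500 bp upstream to 100 bp downstream of the start) of eef-1A.1, a translation elongation factor gene, and rfc-4, a replication factor gene. The second, at mir-4932 on I (I:9512307-9512416, plus strand), ranked 215 with a signal value of 237, and 305 and 186 in replicates 1 and 2. Its summit likewise lay in the promoter windows of klp-16, a kinesin gene, and smn-1, the survival of motor neuron gene. These were the 2 genes within 100 bp whose summit fell in a coding promoter window, and the other 14 did not. Within 500 bp, 24 of 28 genes had their summit in no coding promoter window, but many of these genes share a peak. Counted by peak, 4 of the 18 peaks had their summit in such a window, those of mir-5549, mir-4932, mir-77 and mir-1824. Over all IDR peaks, 836 summits (44.5%) lay in one. The difference was not tested, and it depends on the window. With windows reaching 1000 bp before and 500 bp after the start, 11 of the 16 genes within 100 bp had their summit outside, instead of 14. The share of all IDR summits in these wider windows was not counted.

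The mir-51 group had 4 peaks within 500 bp. The peak beside mir-54, mir-55 and mir-56 on X ranked 222 with a signal value of 236, and 193 and 298 in replicates 1 and 2, where its signal values were 122 and 110. It lay upstream of the cluster on the genes' strand, with the summit 261 bp before the 5′ end of mir-54 (X:13144996-13145094, minus strand). The opposite-strand gene mir-55b had the same peak downstream of it. The mir-52 peak on IV ranked 409 with a signal value of 178, but 1320 in replicate 1 and 202 in replicate 2, with signal values of 50.9 and 133. Its summit was 16 bp inside mir-52 (IV:14034008-14034107, plus strand). The mir-51 peak ranked 577 (949 and 418 in the replicates) with a signal value of 151 and a summit 8 bp before the 5′ end of mir-51 (IV:11026013-11026112, minus strand). The mir-53 peak ranked 1088 (1246 and 973) with a signal value of 111 and a summit 49 bp before mir-53 (IV:11027593-11027691, minus strand). Thus the 3 genes on IV each carried a peak at the hairpin, and the 3 on X shared a peak ahead of the first hairpin. A weaker IDR peak, at rank 1611 with a signal value of 90.3, also lay ahead of mir-52, beyond the limit of 500 bp.

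In the mir-35 group, mir-35 to mir-41 lie in a row on II (mir-35 at II:11537608-11537704, plus strand) with 2 IDR peaks, one at each end. The upstream peak, with its summit 225 bp before the 5′ end of mir-35, ranked 369 with a signal value of 187, and 529 and 301 in replicates 1 and 2, with signal values of 76.6 and 110. It was nearest to mir-35 and mir-36. The downstream peak covered the whole of mir-41 (II:11538308-11538404), with its summit 171 bp past the 5′ end of that gene, and was nearest to mir-37 to mir-41. It ranked 1767 with a signal value of 86.4, and 1183 and 2983 in the replicates, so replicate 2 placed it outside its own strongest 1880. The nearest IDR peak to mir-42 was 8917 bp away.

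In the mir-64 group, mir-229, mir-64, mir-65 and mir-66 lie in a row inside gcn-1 on III (mir-229 at III:2172452-2172566, plus strand). The peak before mir-229, with its summit 298 bp upstream of that gene, ranked 1201 with a signal value of 105, and 897 and 1807 in replicates 1 and 2. The peak over mir-64, mir-65 and mir-66 ranked 1738 with a signal value of 87.0, and 2861 and 1403 in the replicates, with signal values of 35.1 and 53.9. Both were weak members of the IDR set, whose smallest signal value was 83.6 and whose median was 118. The nearest IDR peak to mir-63 was 52866 bp away.

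**Figure D3:**
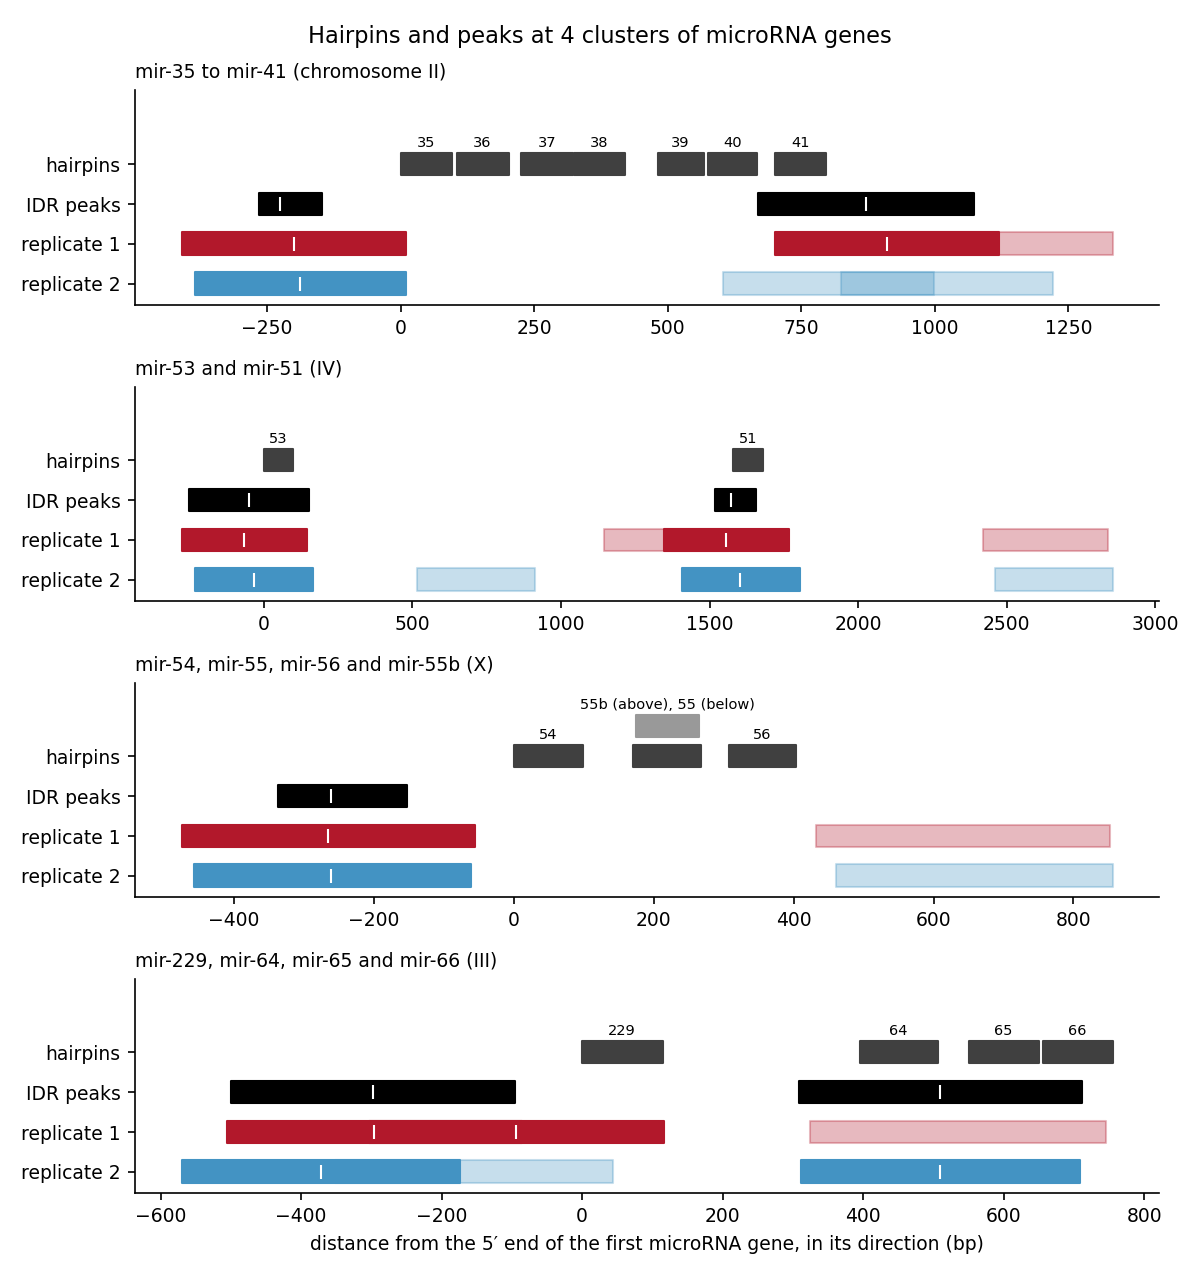
Maps of 4 microRNA gene clusters, drawn in the direction of the microRNA genes, with distance in bp from the 5′ end of the first gene. Dark grey bars are annotated hairpins, the paler grey bar is the opposite-strand gene mir-55b, black bars are IDR peaks, and red and blue bars are replicate 1 and 2 peaks with white ticks at their summits; faded bars are replicate peaks ranked below 1880. At mir-35 to mir-41 and at mir-54 to mir-56 the strongest IDR peak lies before the first hairpin, with its summit 225 bp and 261 bp upstream.

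The 2 upstream peaks and 2 hairpin peaks are printed from the RefSeq genome (WBcel235, genes' strand, 5′ to 3′), since they carry the strongest signals of the mir-35 and mir-51 groups. Capitals mark the searched word GAGAGA, or its reverse complement TCTCTC, in the upstream peaks (chrII:11537342-11537460, plus strand, and chrX:13145248-13145431, minus strand), and the mature arm in the hairpin peaks (chrIV:14033907-14034099, plus strand, and chrIV:11026037-11026173, minus strand):
mir-35 upstream peak: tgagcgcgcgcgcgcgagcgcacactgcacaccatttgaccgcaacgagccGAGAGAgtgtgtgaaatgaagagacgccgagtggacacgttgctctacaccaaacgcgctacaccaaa
mir-54 upstream peak: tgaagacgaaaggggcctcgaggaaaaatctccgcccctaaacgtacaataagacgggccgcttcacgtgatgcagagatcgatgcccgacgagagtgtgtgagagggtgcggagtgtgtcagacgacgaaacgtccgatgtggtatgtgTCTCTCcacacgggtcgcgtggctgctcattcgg
mir-52 hairpin peak: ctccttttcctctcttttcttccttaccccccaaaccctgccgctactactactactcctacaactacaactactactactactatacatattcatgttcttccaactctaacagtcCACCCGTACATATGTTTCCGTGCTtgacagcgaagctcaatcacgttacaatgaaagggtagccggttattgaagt
mir-51 hairpin peak: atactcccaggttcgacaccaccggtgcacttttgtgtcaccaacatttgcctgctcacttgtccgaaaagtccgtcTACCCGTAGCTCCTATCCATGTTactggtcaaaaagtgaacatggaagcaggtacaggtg

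These intervals were narrow, at 119, 184, 193 and 137 bp in the order printed, whereas 11 of the 18 peaks near members had the width of 404 bp that 76.9% of the distinct IDR intervals had. Their bases were 58.8%, 57.1%, 43.5% and 49.6% G or C. The 18 peaks near members had a median of 43.9% G or C, against 38.7% over all IDR intervals (quartiles 34.9 and 43.6). In the mir-52 and mir-51 peaks the whole mature arm lay inside the interval.

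For 5 words, 200 bp around each summit was searched on both strands. GAGAGA was in 7 of the 18 windows near members (38.9%, 20.3 to 61.4), against 27.7% of all 1880 IDR windows. GCGCC was in 4 of 18 (22.2%, 9.0 to 45.2), against 33.5%, and TATAAA was in 3 of 18 (16.7%, 5.84 to 39.2), against 15.2%. TTTTTT was in 7 of 18 (38.9%, 20.3 to 61.4), against 51.7%. Each of these intervals held the value for all windows. CCAAT was in 1 of 18 (5.56%, 0.988 to 25.8), against 30.5% of all windows, and in none of the 13 windows of peaks within 100 bp, which allows up to 23.1%. With windows of 100 bp, CCAAT was in 0 of 18 (0 to 17.6), against 17.4% of all windows, a value inside that interval. Outside the summit windows, the peak intervals of mir-4936, mir-1824 and mir-37 to mir-41 as a whole did hold the word. With so few windows and a different base composition (47.0% G or C on average near members, 41.8% over all, with 200 bp windows), the CCAAT difference is given as a count without a test.

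The remaining genes with a peak within 100 bp were mir-45, mir-80, mir-2214, mir-5595 and mir-4936. The mir-45 peak on II ranked 495 with a signal value of 163, and 506 and 527 in replicates 1 and 2, the closest match of ranks among the 18 peaks. It lay beyond the 3′ end of the gene, with its summit 346 bp past the 5′ end. The mature arm of mir-45 is identical to that of mir-44 over all 21 bases, and both are printed with the seed in capitals:
mir-45: uGACUAGAgacacauucagcu
mir-44: uGACUAGAgacacauucagcu

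The gene mir-44 itself, which sits with mir-42 and mir-43, was 9129 bp from the nearest IDR peak. The mir-80 peak on III ranked 592 with a signal value of 149, and 404 and 1067 in replicates 1 and 2, with its summit 177 bp before the gene. The product of mir-80 belongs to the mir-58 family, relatives of bantam in Drosophila, and it was the only 1 of the family's 6 genes with a peak within 500 bp. The other peaks were mir-2214 at rank 923 (1241 and 914 in the replicates), mir-5595 at 1247 (800 and 2192) and mir-4936 at 1260 (3344 and 789). The last had the lowest replicate rank of all 18 peaks, with signal values of 32.8 in replicate 1 and 71.0 in replicate 2.

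Beyond 100 bp but within 500 bp, mir-77 on II had a peak of rank 405 and signal value 179 (299 and 423 in the replicates), 165 bp from the gene. A snoRNA gene, T21B4.20, lay within 100 bp of the same peak, the only case of a tRNA, snoRNA or snRNA gene beside a peak near these 28 genes, and the summit was also in the promoter window of srh-70, a chemoreceptor gene. The mir-1824 peak (rank 1496) and the mir-4929 peak (rank 1680) were 115 and 114 bp away and stood at 2565 and 2264 in replicate 2. The other genes in this range were mir-35 to mir-39, mir-54, mir-55, mir-55b and mir-56, described with their groups.

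The annotation also holds short non-coding RNA genes of the general class ncRNA, and 7 of the 18 peaks (38.9%) had one within 100 bp, against 291 of 1866 distinct IDR intervals (15.6%). Some of these genes are annotated over a hairpin itself, such as Y62F5A.16 over mir-35, ZK930.13 over mir-45 and K01F9.6 over mir-80, so that a peak chosen near the hairpin lies near them by construction. Without the ncRNA genes that overlap a microRNA gene the counts were 4 of 18 peaks (22.2%), against 288 of 1866 intervals (15.4%). One of those left is F09A5.11 at the mir-54 upstream peak. Which of the neighbouring genes a peak belongs to was not tested.

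In the 500 bp set the summit lay upstream of the gene for 15 of 28 genes, inside it for 4 and downstream for 9. In the 100 bp set these numbers were 8, 4 and 4 of 16. Counted by gene, ahead of the gene was the most frequent position in both sets, but genes that share a peak are not independent. Upstream, mir-35 and mir-36 share a peak, as do mir-54 to mir-56, and mir-65 and mir-66. The peak of mir-65 and mir-66 is also counted as downstream of mir-64. Of the 9 downstream positions in the wider set, 5 were mir-37 to mir-41, which share a peak. Positions are those of the nearest peak only. Of the genes counted as downstream, mir-37 and mir-38 also had a stronger IDR peak upstream within 500 bp (rank 369), as did mir-64 (rank 1201). A preference for a position was not tested.

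In strength the peaks near members resembled the IDR set. The 13 peaks within 100 bp had a median rank of 923 (range 127 to 1767), against 940.5 for all IDR peaks, and a median signal value of 119, against 118. The 18 peaks within 500 bp had a median rank of 757.5 and a median signal value of 134. In the replicate lists, the medians for the 13 peaks were 949 in replicate 1 (range 92 to 3344) and 914 in replicate 2 (range 178 to 2983). The strongest IDR peak of all had a signal value of 1738, and none near a member exceeded 306.

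Both replicates placed 9 of the 13 peaks, and 12 of the 18, among their own strongest 1880, and every one of the 18 was among them in at least 1 replicate. Over all distinct IDR intervals, 1267 of 1866 (67.9%) were among the strongest 1880 of both. The strongest 1880 peaks of each replicate list lay within 100 bp of 19 microRNA genes in replicate 1 and 17 in replicate 2, of which 11 were shared. Of these 11, 8 were among the 16 IDR genes, and mir-35, mir-36 and mir-54 entered because the replicate peaks there were wider. Within 500 bp the counts were 33 and 27, and all 21 shared genes were among the 28 of the IDR set. Missing from replicate 1 within 500 bp were mir-4936 and mir-66, and from replicate 2 mir-1824, mir-40, mir-41, mir-4929 and mir-5595.

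**Figure D4:**
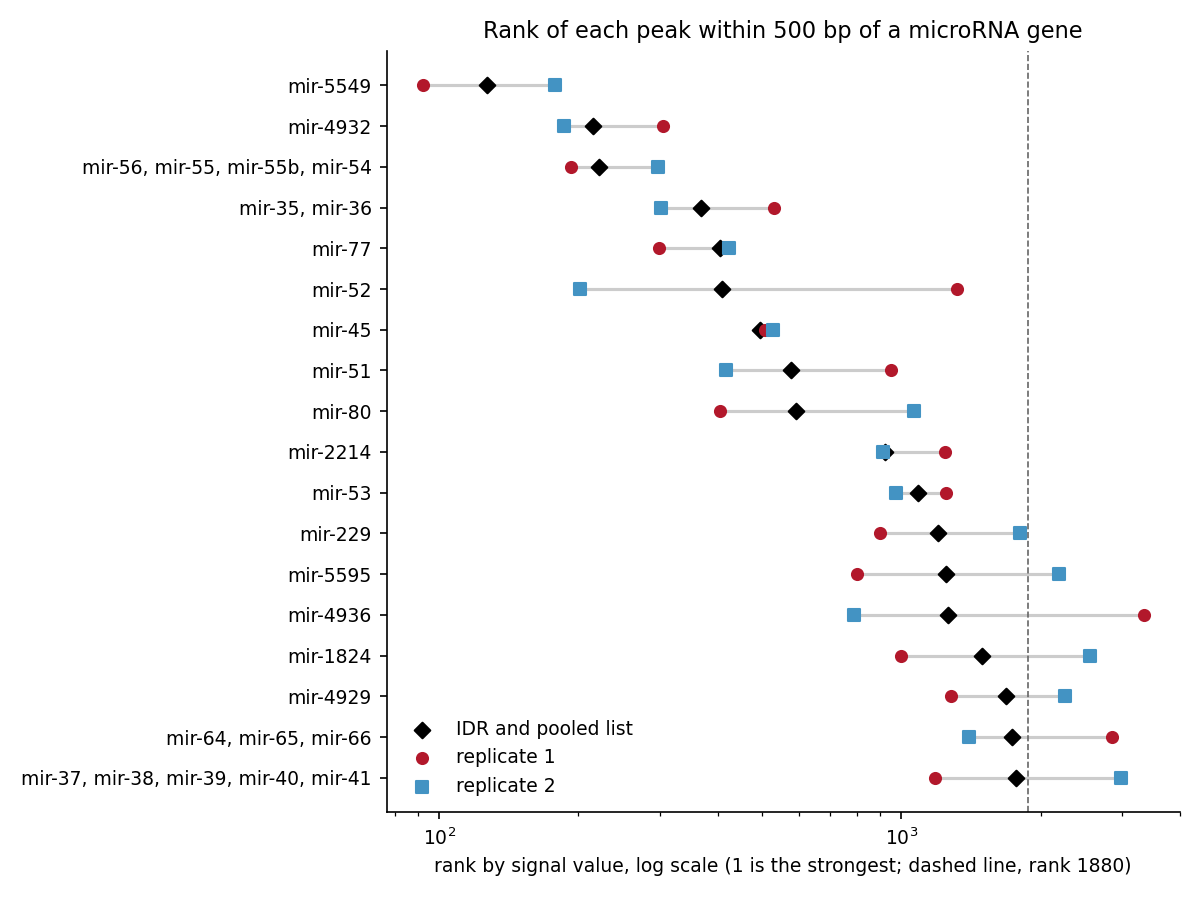
Rank by signal value of the 18 peaks within 500 bp of a microRNA gene, on a log axis where 1 is the strongest, in the IDR and pooled lists (black), replicate 1 (red) and replicate 2 (blue), each labelled with the genes nearest to it. The dashed line marks rank 1880; 12 peaks lie left of it in both replicates, and the peaks of mir-4936 and of mir-37 to mir-41 are the farthest beyond it in 1 replicate each.

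Among seeds carried by 3 or more genes, 6 of 16 had a gene with a peak within 500 bp and 10 had none. The mir-51, mir-35 and mir-64 groups together held 19 genes (7.28% of members), of which 9 had a peak within 100 bp and 17 within 500 bp. These 17 were 60.7% of the 28 genes, and they came from 8 distinct peaks at 5 loci. The 3 groups were singled out after their values were seen, so the shares are a description. Among the 242 microRNA genes outside them, 7 (2.89%) had a peak within 100 bp and 11 (4.55%) within 500 bp. Taking out the groups with the most genes near peaks lowers these shares by construction. The 4.88% and 6.48% of all genes are therefore no fair comparison for the remaining genes. In the strongest 1880 of each replicate alone, the mir-51 group kept 6 of 6 genes within 500 bp in both, the mir-35 group had 7 in replicate 1 and 5 in replicate 2, and the mir-64 group had 3 and 4. Within 100 bp the mir-51 group had 4 genes in each replicate, against 3 in the IDR set. The mir-35 group had 4 in replicate 1 and 2 in replicate 2, against 2, and the mir-64 group had 1 and 3, against 4.

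**Figure D5:**
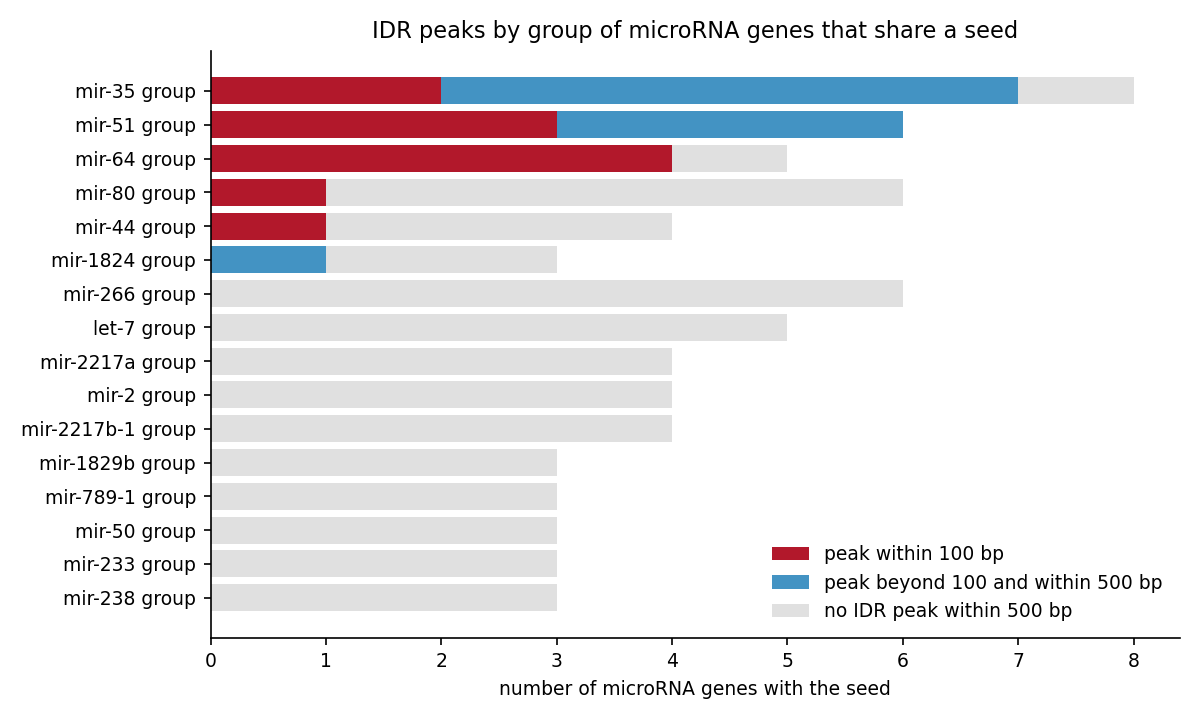
Number of microRNA genes for each seed shared by 3 or more genes, split into those with an IDR peak within 100 bp (red), those with one beyond 100 and within 500 bp (blue) and those with none within 500 bp (grey). The mir-35 and mir-51 groups reach 7 of 8 and 6 of 6 genes and the mir-64 group 4 of 5, and 10 of the 16 seeds have no gene near a peak.

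None of the 7 genes of the let-7 family, which times larval and adult fates, had an IDR peak within 500 bp. A count of 0 of 7 allows a share of up to 42.9%, so it cannot be set apart from the 10.7% of all microRNA genes. The nearest IDR peak to let-7 was 1652 bp away, and the best pooled peak within 500 bp of it ranked 11183. The corresponding values were 2028 bp and rank 5077 for mir-84, 9869 bp and rank 10452 for mir-48, and 11645 bp and rank 5156 for mir-241. For lin-4, which acts earlier in the same timing pathway, they were 33564 bp and rank 9225, and for its relative mir-237, 69776 bp and rank 3545. The gene lsy-6, which sets left and right identity in a pair of taste neurons, had no pooled peak within 500 bp and was 67888 bp from an IDR peak. Of other widely studied genes, mir-71, which affects lifespan, was 1244 bp away with a best pooled rank of 4766, and mir-1, a muscle microRNA, was 8193 bp away with a best pooled rank of 10741.

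Among protein-coding genes of the microRNA pathway, 3 of the 30 found in the annotation from a list of 31 had an IDR summit in their promoter window (10%), against 5.28% of all protein-coding genes. They were vig-1, which encodes a protein of the RNA-induced silencing complex (rank 63, signal value 406), xrn-2, an exonuclease gene that acts on mature microRNAs in worms (rank 543, signal value 155), and lin-28, which encodes an RNA-binding protein that blocks let-7 maturation (rank 1354, signal value 99.1). The genes for Drosha (drsh-1), Dicer (dcr-1) and the Argonautes alg-1 and alg-2 had none. With 3 genes the share cannot be set apart from the background.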

How the data were processed

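Per the labels, the deposited peaks are on assembly ce11; per the README texts deposited with them, each replicate list was made from that replicate's alignments and a shared control, and the IDR set from both replicate lists and the pooled list. Sources used here do not name the aligner, the peak caller, the IDR threshold, the handling of reads that match several places or the read depth. Each peak carries the authors' signal value, used here for ranks, the authors' −log10 of a q-value, which gave no result here, and a deposited offset of the summit in bases (an other unit). Distances were counted between peak interval and gene, 0 where they overlap, with python 3.11.15, numpy 2.4.6 and pandas 2.3.3, and the code was tested on simulated peaks. Genes came from Ensembl 115 and mature arms and sequences from RefSeq WBcel235. With 1 group and 2 replicates no test was run; shares have 95% Wilson intervals (scipy 1.17.1). Replicate peaks were matched to IDR peaks by at least 1 shared base, taking the strongest. Where a count was 0, the limit is 3 counts of the total, and by chromosome the upper Wilson bound is given beside it. Members, lists and words were chosen with earlier results of these data known. Named genes are all those with an IDR peak within 500 bp, with let-7, lin-4, lsy-6 and listed families. Alternatives were the peak set, the distance, the summit, the definition of place, the promoter window and each replicate alone. The mature arm of 1 gene of the mir-64 group is not reported here.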

Additional observations from a re-analysis of the deposited data

How the results depend on the processing

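Of 121 alternative values, 94 stayed within 1.5 times the reported count or within its interval, and 27 moved. With the stronger 940 IDR peaks alone, the counts were 7 genes, 7 peaks and 7 loci within 100 bp and 16 genes within 500 bp, with shares of 1.03% for intronic (clustered 3.57%, independent 4.17%) and 3.74% for autosomal genes. With all pooled peaks they were 86 genes, 75 peaks and, within 500 bp, 125 genes, with shares of 38.1% intronic, 28.6% clustered, 29.2% independent, 41.7% exon-touching, 28.4% on X and 34.8% on autosomes. Within 1000 bp there were 34 genes and 23 peaks, with shares of 21.6% intronic, 8.11% on X and 15.0% on autosomes. Measured from the summit, 10 genes lay within 100 bp, and 4.12% of intronic genes. Defining clusters within 1 kb left 0% of clustered genes with a peak, and putting clusters before introns left 2.74% of intronic genes. The pathway list gave 7 genes when promoter windows ran from 1000 bp before to 500 bp after the start. The share of all protein-coding genes with these wider windows was not counted, so that count has no background here. In both replicates, 21 genes had a peak within 500 bp. With either replicate's strongest 1880 peaks alone, 17 to 19 genes had a peak within 100 bp and 27 to 33 within 500 bp. Of the settings named here that changed the peaks, the distance or the window, only pooled peaks within 100 bp have a share of all genes (33.1%). The other counts cannot be set against the shares of all genes given for the main settings. Alternatives for the loci, the seed groups, the median rank within 500 bp, the genes in both replicates within 500 bp and the neighbouring ncRNA genes were chosen after seeing the data. The depth behind each peak is unknown, and the cause of these shifts was not tested beyond the number of peaks or distance that each setting fixes. No paired analysis was possible because there was 1 group.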

Other observations

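Some microRNA genes had a strong peak in 1 replicate without an IDR peak within 500 bp. In the strongest 1880 of replicate 1 these were mir-61 and mir-250, neighbours on V that share a peak of rank 1046 in replicate 1 and 4295 in replicate 2, mir-4938 (1133 and 5961), mir-58a (1784 and 4848), mir-4813 (1845 and 11152) and the overlapping pair mir-8186-1 and mir-8186-2 (1848 and 3736). In replicate 2 they were mir-239a and mir-239b on X, with the same best peak of rank 1428 in replicate 2 and ranks of 2541 and 4498 in replicate 1, mir-4934 (1431 in replicate 2 and 7468 in replicate 1) and mir-243 (1771 and 4683). Their best pooled ranks were between 2000 and 4260, outside the 1880 of the IDR set.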
